A study of Mus musculus with 8 samples.

Results

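Regulators of G protein signalling, the RGS proteins, were followed at the transcript level in mouse CD4+ T cells. The 7 genes described are Rgs1, Rgs2, Rgs3, Rgs10, Rgs14, Rgs16 and Rgs19, of 54532 genes listed and 13981 genes with enough counts to be tested. They were taken by gene symbol from a family of 22 RGS genes and chosen on their counts and fold changes in these same libraries. Their values are therefore a description of the libraries, with no test. All 7 passed the filter on low counts, and so did 4 RGS genes that were not among them, Rgs9, Rgs11, Rgs12 and Rgs18.

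The libraries came from CD4+ T cells of the spleen with a wild-type genotype. Of these, 4 were of cells treated with vehicle, which the headers of the deposited table call DMSO, and 4 of cells treated for 3 days with dimethyl succinate, a cell-permeable ester of succinate. The study's design gives the 3 days for dimethyl succinate and names no other time for the vehicle cells. All groups share the wild-type genotype. Nothing in the labels says whether the 4 libraries of a group came from separate mice or cultures. The spread between them, against which every p-value sets the difference between groups, may therefore be technical. The age and strain of the mice, the dose and any stimulation of the cells are not given in the sources used here.

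RGS proteins switch off heterotrimeric G proteins. A receptor loads the G alpha subunit with GTP, and the RGS domain speeds the hydrolysis of that GTP, which ends the signal. In T cells the receptors at stake include those for chemokines, which signal mainly through G alpha i, so RGS proteins shape how cells respond to attractants. The family is grouped by sequence, and Rgs1, Rgs2, Rgs3 and Rgs16 belong to the R4 group, Rgs10 and Rgs14 to the R12 group and Rgs19 to the RZ group.

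Total counts ran from 13407295 to 16688854 per library. Vehicle replicate 4 stood apart: mitochondrially encoded genes took 0.252% of its counts, where the other 7 libraries had 1.16% to 1.48%, and its r with the remaining libraries averaged 0.981, where theirs averaged 0.989 to 0.991. The fold changes of the 7 genes are given with and without it. T helper markers were abundant, with Cd4 at 317 to 489 CPM (read counts scaled to a common library size, with no correction for gene length), but the summed CPM of the 8 markers was lowest in vehicle replicate 4, at 2164 in a vehicle range of 2164 to 2761, against 2710 to 2821 under dimethyl succinate. Of the 8 B cell markers the summed CPM ran from 5.32 to 6.56, and of the 8 monocyte and macrophage markers from 4.17 to 10.6, with the lowest value in vehicle replicate 4. The 7 erythroid and platelet markers summed to 51.0 CPM in vehicle replicate 4, the highest of the vehicle range of 26.5 to 51.0, against 23.8 to 30.5 under dimethyl succinate, and the most abundant of them was Itga2b. S100a9 of neutrophils, Siglech of plasmacytoid dendritic cells and Col3a1 and Cdh5 of stroma and endothelium were at 0 in every library. Their full lists were not, with summed CPM of 0.626 to 1.35 for neutrophils and 9.1 to 12.9 for dendritic cells. The stroma and endothelium list summed to 28.6 to 40.1, mostly Pecam1. Sums were 15.2 to 23.2 CPM for NK cells, 15.3 to 21.9 for mast cells and basophils and 5.5 to 7.54 for cytotoxic T cells. Plasma cell markers summed to 131.8 to 151.7 CPM, mostly Xbp1. The part of other cells in the RGS values was not tested. In bulk libraries fewer cells of a type and less RNA per cell cannot be told apart.

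Within the family, 17 of 22 genes had a count in any library and 11 were tested, and the 7 genes described held 88.8% of all RGS counts. Levels per length, in the authors' FPKM (fragments per kilobase of gene length, scaled to library size), allow a rough comparison between genes. They depend on the gene length listed, which for some members was well above that of the longest principal transcript. On that scale Rgs12, an R12 protein with several signalling domains, lay among them at 5.72 ± 0.577 FPKM (SD, n = 8). It stood between Rgs14 and Rgs2. Rgs11 followed at 1.89 ± 0.278, Rgs18, known from platelets and myeloid cells, at 0.923 ± 0.343, and Rgs9, known from photoreceptors and striatum, at 0.205 ± 0.0643 FPKM. The 6 untested genes with any count had 1 to 32 counts over all libraries together. Rgs4, Rgs5, Rgs7, Rgs17 and Rgs21 had 0 of 121192348 counts, which allows a level of up to 0.0248 CPM (3 counts of that total), counting error only.

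**Figure D1:**
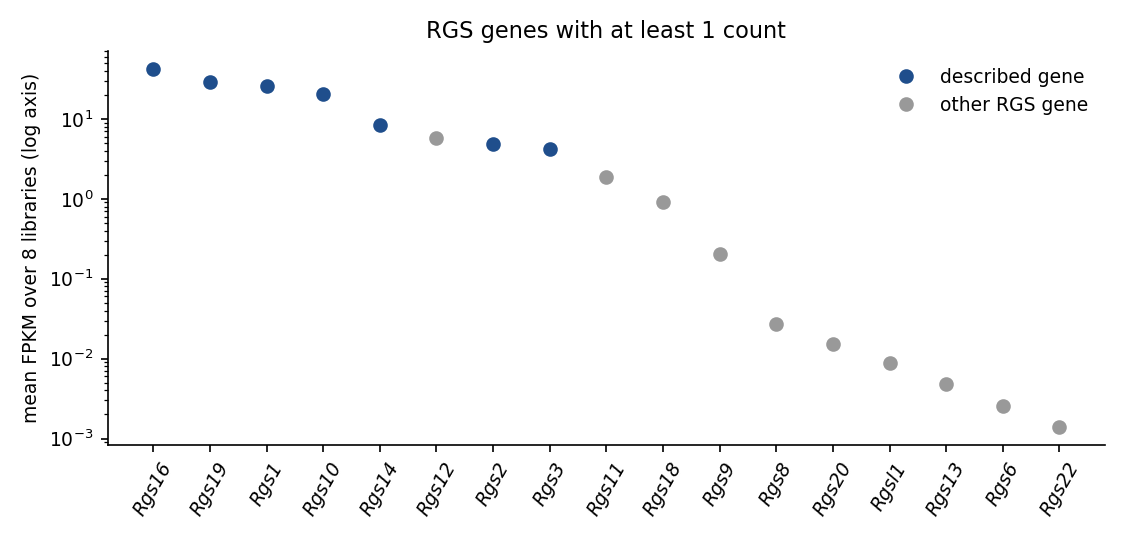
Mean FPKM over the 8 libraries (y axis, log scale) of the 17 RGS genes with at least 1 count (x axis, in order of level), with the 7 genes described in blue and the other RGS genes in grey. Rgs16 stands highest at 42.6 FPKM, and Rgs12 is the one grey point that lies among the blue ones.

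On chromosome 1 (GRCm38) Rgs2, Rgs13, Rgs1, Rgs21 and Rgs18 follow each other with no other protein-coding gene in between, from 143999338 to 144775435, all on the minus strand. Their levels in that order were 4.81, 0.00478, 25.8, 0 and 0.923 FPKM, so in this run of neighbours Rgs1 stood far above the next gene on either side. Rgs16 lies on the plus strand of the same chromosome, from 153740349 to 153745468, beside Rgs8, which was at 0.0273 FPKM against 42.6 for Rgs16. Rgs3 lies on chromosome 4 (62559847 to 62704001), Rgs10 on chromosome 7 (128373621 to 128418758), Rgs14 on chromosome 13 (55369732 to 55384687) and Rgs19 on chromosome 2 (181688419 to 181693977). The start and end listed for all 7 equalled those of GENCODE M21.

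The order of the members by level depended on the length behind it. By the authors' FPKM Rgs16 was highest at 42.6 ± 6.94 (SD, n = 8), above Rgs19 at 28.9 ± 2.55 in 8 of 8 libraries. Rgs19 and Rgs1, at 25.8 ± 2.19, overlapped in their ranges, with Rgs19 the higher in 7 of 8 libraries. Rgs10 followed at 20.4 ± 1.63 and Rgs14 at 8.38 ± 0.842, each apart from its neighbours in every library. Rgs2 and Rgs3 closed the order at 4.81 ± 0.96 and 4.21 ± 0.195 FPKM, with overlapping ranges.

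The length listed for Rgs1, 6947 bases, equals its whole genomic span, and 3 of its 9 annotated transcripts retain introns. Its longest principal coding transcript has 3841 bases, and that of Rgs10 has 880 of 1711 listed bases. Rgs3 is listed with 10801 bases from 17 transcripts, where the longest principal one has 3888, while Rgs16 has 1 transcript of 2339 bases on both counts. With CPM per kilobase of these principal transcripts, a choice made after the data were seen, Rgs1 came first at 46.9 ± 4.05 (SD, n = 8), followed by Rgs19 at 42.8 ± 3.83, Rgs16 at 42.8 ± 6.96 and Rgs10 at 39.8 ± 3.13. Within these 4, the range of each gene overlapped with that of its neighbour in the order. Rgs14 at 15.2, Rgs3 at 11.8 and Rgs2 at 5.81 CPM per kilobase stood apart from one another in every library. On either scale the 4 upper genes and the 3 lower genes were the same.

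**Figure D2:**
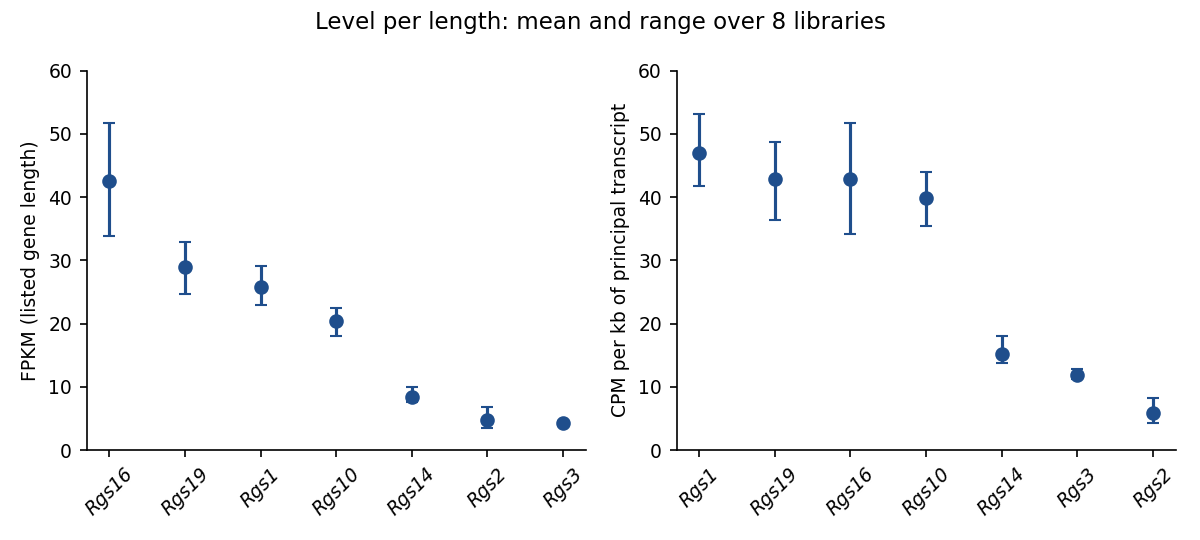
Level per length of the 7 genes, as the mean (point) and the range over 8 libraries (bar), in FPKM with the listed gene lengths (left) and in CPM per kilobase of the longest principal transcript (right). Rgs16 stands alone at the top on the left, and Rgs1, Rgs19, Rgs16 and Rgs10 overlap on the right.

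Among the R4 genes, Rgs16, which acts on G alpha i and G alpha q, was high in all dimethyl succinate libraries and in 1 vehicle library. Its CPM was 79.7, 86.7, 80.5 and 120.8 in vehicle replicates 1 to 4 and 108.1, 103.6, 103.1 and 119.0 in dimethyl succinate replicates 1 to 4. The groups overlapped through vehicle replicate 4 alone, which was the highest library of all. Means were 91.9 ± 19.5 under vehicle and 108.5 ± 7.4 with dimethyl succinate (SD, n = 4). On the log2 scale the fold change was 0.24 ± 0.12 (SE). Without vehicle replicate 4 the vehicle mean was 82.3 ± 3.84 CPM (SD, n = 3) and the log2 fold change 0.40 ± 0.0593 (SE), with a 95% interval of 0.28 to 0.52. Rgs16 shares 10.1% of its exon bases with Gm28513 on the opposite strand, and whether counting used strand is not given in the sources used here. Gm28513 itself had 25 counts over all libraries, against 12172 for Rgs16.

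Rgs2, the R4 member with a preference for G alpha q, was lowest of the 7 by CPM and was also highest in vehicle replicate 4. It stood at 16.7, 17.6, 17.6 and 24.8 CPM in vehicle replicates 1 to 4 and at 12.7, 15.8, 16.3 and 18.9 in dimethyl succinate replicates 1 to 4. The groups overlapped, since dimethyl succinate replicate 4 lay above vehicle replicates 1 to 3. The log2 fold change of -0.27 ± 0.147 (SE) became -0.12 ± 0.111 without vehicle replicate 4, with an interval from -0.34 to 0.11, and -0.17 without dimethyl succinate replicate 1. These values rest on 186 to 357 counts per library, the fewest of the members.

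Rgs16 and Rgs2 thus shared a high value in vehicle replicate 4, 1.47 and 1.44 times the mean of the other 3 vehicle libraries, while the rest of their pattern differed. Rgs14 and Rgs3 were also highest there among the vehicle libraries, at 1.19 and 1.02 times that mean. The bases before the transcription starts of Rgs2 and Rgs16 are shown because they had the largest such ratios of the 7. Of the members, 5 had a 300-base window in the RefSeq promoter table (GRCm38.p6), 8 windows in all, and the 250 upstream bases of Rgs2 (chr1:144004150-144004399, minus strand) and Rgs16 (chr1:153740103-153740352, plus strand) read as follows, 5′ to 3′, with matches to the core TGACG of the cAMP response element in capitals on either strand.
Rgs2: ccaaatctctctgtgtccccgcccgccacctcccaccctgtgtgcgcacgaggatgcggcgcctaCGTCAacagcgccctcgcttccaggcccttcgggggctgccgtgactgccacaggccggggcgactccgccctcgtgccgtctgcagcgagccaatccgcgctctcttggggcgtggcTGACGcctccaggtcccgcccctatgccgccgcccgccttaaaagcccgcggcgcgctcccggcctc
Rgs16: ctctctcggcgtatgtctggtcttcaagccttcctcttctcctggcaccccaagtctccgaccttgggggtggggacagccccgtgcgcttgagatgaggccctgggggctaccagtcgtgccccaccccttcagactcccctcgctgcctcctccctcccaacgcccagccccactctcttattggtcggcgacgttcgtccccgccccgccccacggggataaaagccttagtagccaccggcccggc

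Rgs2 had 2 matches to that core, at -185 to -181 on the strand opposite to the gene and at -67 to -63 on the gene's own strand, counted from the start, and Rgs16 had 0. Of 32851 promoter windows 20.8% held the core on either strand. The full element TGACGTCA (1.79% of windows), the AP-1 motif TGANTCA (7.81%), the NFAT core GGAAA (61.3%), the E-box CACGTG (7.15%), TATAAA (13.6%) and the NF-kB motif (8.46%) were not in either window. The core is part of the full element, so those 2 shares overlap. Rgs3 had TATAAA in both of its windows and Rgs10 had no match to any of these motifs in its window. The G and C content of the 300-base window was 70.0% for Rgs2 and 66.0% for Rgs16, against a median of 52.7% over all windows.

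Rgs1, which restrains chemokine receptor signalling in lymphocytes, held the most counts of the family. Its CPM was 184, 189, 167 and 163 in vehicle replicates 1 to 4 and 161, 193, 179 and 204 in dimethyl succinate replicates 1 to 4. The groups overlapped throughout, with the lowest and the highest library both under dimethyl succinate. Means were 175.6 ± 12.9 and 184.3 ± 18.7 CPM (SD, n = 4). The log2 difference of 0.070 ± 0.0802 (SE) had a 95% interval from -0.10 to 0.24, and became 0.035 without vehicle replicate 4, 0.13 without dimethyl succinate replicate 1 and 0.019 without dimethyl succinate replicate 4.

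Rgs3, the R4 member with long isoforms that carry other domains ahead of the RGS domain, varied least. Vehicle libraries stood at 44.0, 43.6, 43.7 and 44.8 CPM and dimethyl succinate libraries at 47.1, 47.2, 46.2 and 49.8. Every dimethyl succinate library lay above every vehicle library, by a small margin. The log2 fold change was 0.11 ± 0.0656 (SE), or 0.12 ± 0.0663 without vehicle replicate 4. The coefficient of variation over the 8 libraries was 4.8%, where the other members had 7.87% to 19.7%. Rgs3 shares 11.4% of its 50-base windows with Gm5763, a processed pseudogene with 75 counts over all libraries against 5551 for Rgs3, so reads could be split between them.

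In the R12 group Rgs10, a small protein made of little more than the RGS domain, was lower in every dimethyl succinate library than in all vehicle libraries. Its values were 38.7, 38.3, 36.1 and 36.0 CPM in vehicle replicates 1 to 4 and 33.9, 34.0, 31.1 and 32.0 in dimethyl succinate replicates 1 to 4. Means were 37.3 ± 1.41 and 32.8 ± 1.44 CPM (SD, n = 4). This is a log2 fold change of -0.19 ± 0.0734 (SE; 95% interval from -0.35 to -0.028), and of -0.20 ± 0.0737 without vehicle replicate 4, which stood at 0.956 times the mean of the other vehicle libraries.

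Rgs14, which joins an RGS domain to Ras-binding domains and a motif that holds G alpha i in its GDP form, overlapped between the groups. Its CPM was 33.7, 32.2, 32.5 and 39.2 in vehicle replicates 1 to 4 and 42.4, 36.7, 36.0 and 33.3 in dimethyl succinate replicates 1 to 4. Vehicle replicate 4 was again the highest vehicle library, at 1.19 times the mean of the other 3. The log2 fold change was 0.11 ± 0.0953 (SE), or 0.18 ± 0.0814 without that library, where dimethyl succinate replicate 4 still lay among the vehicle values. Without dimethyl succinate replicate 1, its highest library, it was 0.042.

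Rgs19, also known as GAIP, a regulator of G alpha i and the only RZ member with more than 8 counts in all, did not separate the groups either. Vehicle libraries stood at 63.4, 61.2, 73.6 and 55.0 CPM and dimethyl succinate libraries at 68.8, 65.6, 69.0 and 61.3. Both the highest and the lowest of the 8 were vehicle libraries, and vehicle replicate 4 was the lowest. The log2 fold change of 0.065 ± 0.0869 (SE) became 0.0051 ± 0.0679 without it and 0.14 without vehicle replicate 3.

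**Figure D3:**
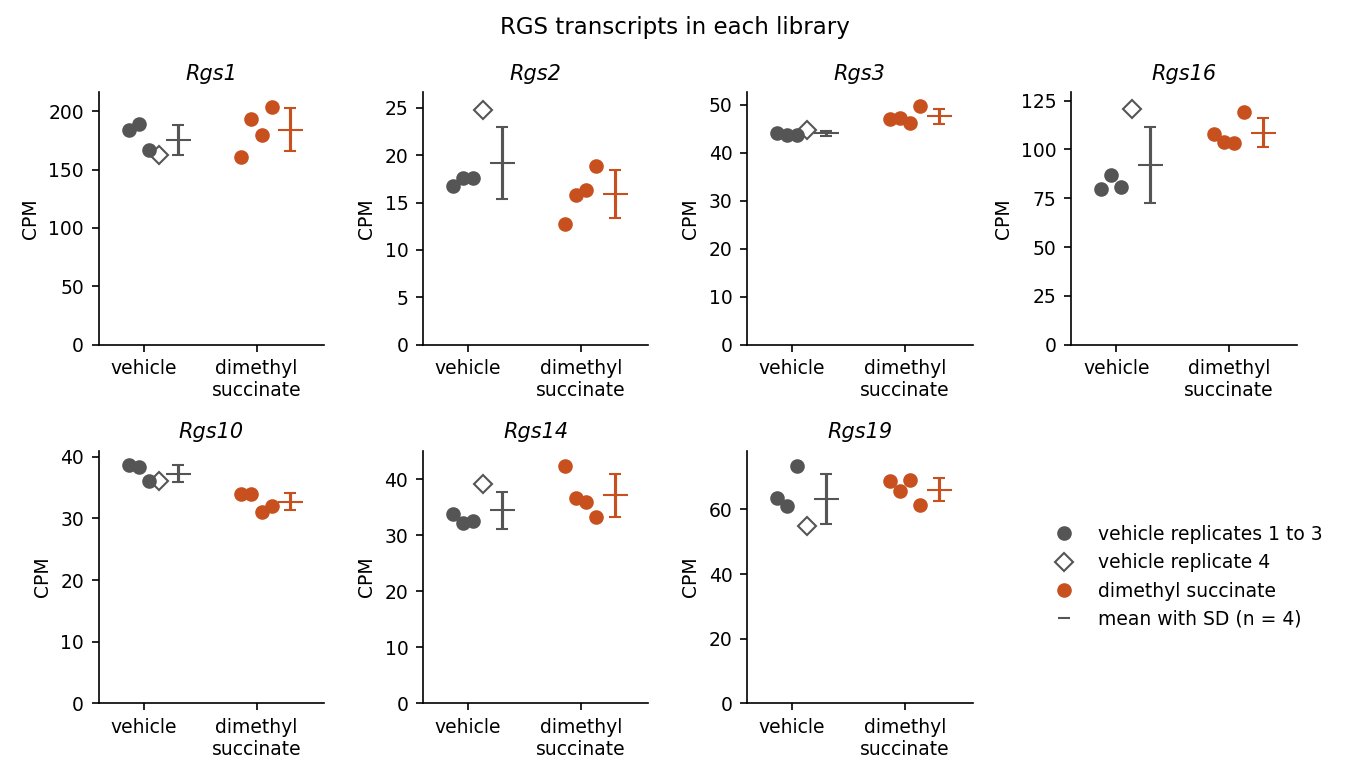
CPM (y axis, from 0) of each gene in the 4 vehicle libraries (grey, replicate 4 as an open diamond) and the 4 dimethyl succinate libraries (orange), with the mean and SD of each group (n = 4) to the right of its points. The groups are apart for Rgs3 and Rgs10, and the diamond lies above all other vehicle points for Rgs2, Rgs14 and Rgs16 and, by a small margin, for Rgs3.

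Over the 7 genes, 5 had a log2 fold change above 0 and 2 below. Their median was 0.07 with all libraries and 0.035 once vehicle replicate 4 was left out, beside -0.0011 and -0.00021 over all genes tested. The authors' deposited table gives log2 fold changes from -0.27 for Rgs2 to 0.23 for Rgs16. The groups did not overlap for 2 of 7, Rgs3 and Rgs10, where 4.82% of all genes tested did not. In edgeR's quasi-likelihood test 0 of 7 passed an adjusted p of 0.05, beside 0.0% of all genes (805 of 13981 at an unadjusted p under 0.05, and 0 adjusted calls by DESeq2), and 1 of 7, Rgs10, was below an unadjusted p of 0.05, beside 5.76%. Without vehicle replicate 4 the groups did not overlap for 3 of 7, Rgs3, Rgs10 and Rgs16, beside 9.61%, and 3 of 7, Rgs10, Rgs14 and Rgs16, were below the unadjusted threshold, beside 8.54%. Rgs16 was then the 1 member past the adjusted threshold, where 0.197% of all genes were. The library left out was the one in which Rgs16 was highest. Because the same contrast was in view when the genes were chosen, these counts are a description. They are no test of Rgs10, Rgs14, Rgs16 or any other member, and say nothing about the family as a whole.

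**Figure D4:**
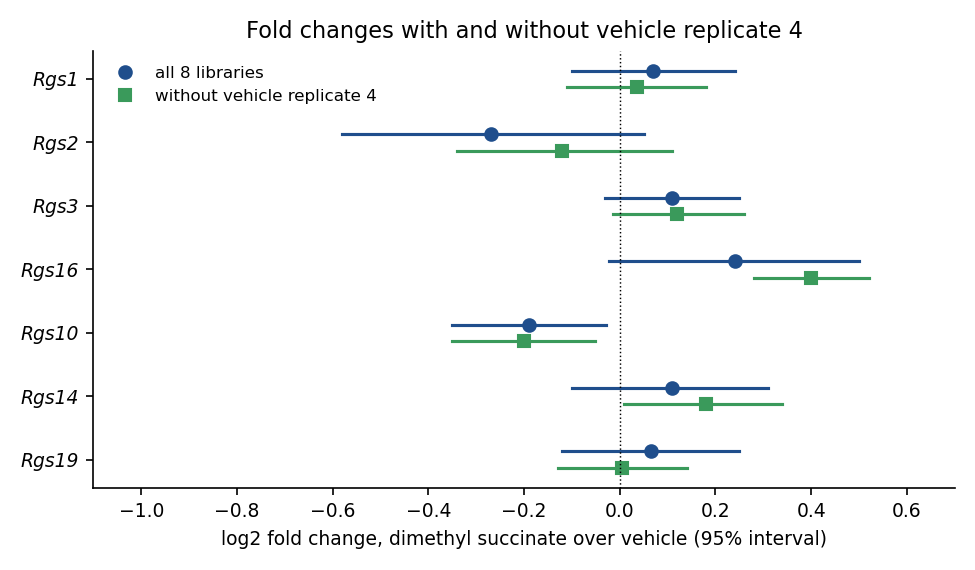
Log2 fold change of dimethyl succinate over vehicle (x axis) for each gene, from all 8 libraries (blue circles) and without vehicle replicate 4 (green squares), with 95% intervals. Rgs16 moves from 0.24 to 0.40 and Rgs2 from -0.27 to -0.12, and the other 5 genes move by less than 0.1.

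The members did not vary as one block. Pearson's r of log2 CPM over the 8 libraries ran from -0.80 for Rgs3 with Rgs10 to 0.74 for Rgs3 with Rgs16 over the 21 pairs. For Rgs3 with Rgs10 it was -0.16 on deviations from the group means. For Rgs3 with Rgs16 it was 0.96 without vehicle replicate 4 and 0.59 on deviations from the group means. Rgs2 with Rgs16 gave 0.26 over all libraries, 0.80 on deviations from the group means and -0.22 without vehicle replicate 4, so the sign turned when that library was left out. Rgs1 with Rgs14 gave -0.59 over all libraries and -0.81 on deviations. All values share the same 8 libraries and are given as a description.

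Other genes tracked single members more closely than the members tracked each other. Up to 3 genes of highest r among 8914 with at least 10 CPM are named for each member, and since they were picked for the highest r their size is no sign of a link. For Rgs16 they were Nkg7, a cytotoxic granule protein, at 0.975, Axl, a receptor tyrosine kinase, at 0.971 and Trim8 at 0.971, and without vehicle replicate 4 these were 0.974, 0.966 and 0.962. For Rgs2 they were Rsl1d1 at 0.991, Mapre1, which binds microtubule ends, at 0.990 and Nadk2 at 0.988. For Rgs10 they were Rbm43 at 0.961, Arrdc3, an arrestin-domain protein, at 0.952 and Rpl17, a ribosomal protein gene, at 0.896. On deviations from the group means Rpl17 gave 0.627. For Rgs3 they included Pip5k1a at 0.939 and Traf1, an adaptor of TNF receptors, at 0.926, or 0.729 and 0.66 on deviations. Rgs1 was nearest to Phactr2 at 0.982, Itgb8, an integrin chain, at 0.935 and Aspm, a protein of the mitotic spindle, at 0.934. Rgs14 was nearest to Mrps27 at 0.963, Traf4 at 0.954 and Smyd2 at 0.951, and Rgs19 to Slc6a9, a glycine transporter, at 0.971, Actn1, an actinin, at 0.966 and Srpk1, a kinase of splicing factors, at 0.960.

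Of the RGS genes outside the 7, Rgs11, an R7 protein that pairs with the beta subunit Gnb5, had the lowest p. It stood at 7.62, 6.81, 6.65 and 7.44 CPM in vehicle replicates 1 to 4 and at 9.63, 9.07, 9.36 and 7.28 in dimethyl succinate replicates 1 to 4. Dimethyl succinate replicates 1 to 3 exceeded each vehicle library and replicate 4 lay among them. The log2 fold change was 0.31 ± 0.128 (SE), with an unadjusted p of 0.0322, and edgeR's quasi-likelihood test gave an adjusted p of 0.802, so it was not called. Without vehicle replicate 4 it was 0.33. Rgs12 had a log2 fold change of -0.019 ± 0.0956, Rgs18 -0.53 ± 0.30 and Rgs9 -0.11 ± 0.336 (SE), with adjusted p from 0.802 to 0.977. Without vehicle replicate 4 the sign turned for Rgs12, at 0.077, and for Rgs9, at 0.033. Rgs18 was highest in vehicle replicate 4, at 3.27 CPM against 1.40 to 2.47 in the other vehicle libraries, and its log2 fold change was -0.28 without it. The summed erythroid and platelet markers were highest in the same library, and their part in the Rgs18 value was not tested.

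The substrates of RGS proteins, the G alpha subunits, gave no call. Of 15 listed 10 were tested, and at an unadjusted p under 0.05 there were 0 higher and 1 lower. Their median log2 fold change, -0.019, was 0.0054 when vehicle replicate 4 was left out. The 3 of highest FPKM follow. Gnai2, the main inhibitory subunit of lymphocytes, stood at 136 ± 8.23 FPKM in vehicle libraries and 147 ± 13.6 with dimethyl succinate, Gnai3 at 89.8 ± 4.49 and 83.7 ± 4.48, and Gna13 at 41.7 ± 1.23 and 41.4 ± 1.48 (SD, n = 4). In FPKM, with gene lengths as listed, Gnai2 and Gnai3 lay above every RGS gene, and Gna13 lay close to Rgs16. The 1 subunit below the unadjusted threshold was Gnal, a stimulatory subunit best known from olfactory neurons, at a log2 fold change of -0.31 ± 0.12 (SE) with an adjusted p of 0.802.

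The partners and downstream genes gave no call. Of 8 tested G beta and gamma subunits 0 were below the unadjusted threshold and 7 lay above 0. Their median log2 fold change of 0.16 was 0.086 when vehicle replicate 4 was left out. Gnb1 stood at 86.0 ± 6.4 FPKM under vehicle and 84.9 ± 1.62 with dimethyl succinate, and Gnb2 at 66.5 ± 2.03 and 70.8 ± 4.38 (SD, n = 4). The gamma subunit Gng5 was at 4.96 FPKM in vehicle replicate 4 and at 14.7 to 17.1 in the other 7 libraries, so its log2 fold change of 0.28 became 0.0099 without that library. Of 7 receptor kinases and arrestins, which uncouple active receptors, 0 were below the threshold, and Grk2 stood at 111 ± 3.02 and 111 ± 5.49 FPKM, Grk6 at 49.2 ± 7.44 and 45.2 ± 2.01 and Arrb2 at 26.7 ± 0.929 and 26.4 ± 1.78 (SD, n = 4). Of 29 tested effectors, the enzymes and signalling genes that act after G proteins, 0 were below it either. Without vehicle replicate 4 there were 1 higher and 2 lower, beside 8.54% of all genes in that fit. The most abundant, Prkar1a, a regulatory subunit of protein kinase A, and the GTPase Rhoa were 1.32 and 1.31 times the mean of the other vehicle libraries in vehicle replicate 4, and Dock2, which drives lymphocyte migration, was 0.803 times it. Of 14 other regulators of G proteins 0 were higher and 1 was lower, Pdcl, which acts in G beta gamma folding, whose log2 fold change of -0.21 ± 0.0839 (SE) was -0.13 with vehicle replicate 4 left out. Without that library 1 of these regulators was higher and 0 were lower at an unadjusted p under 0.05, beside the same 8.54%. Arhgef1, a guanine nucleotide exchange factor with an RGS-like domain, stood at 80.3 and 78.7 FPKM, Gpsm3 at 31.8 and 33.1, and Axin1, a Wnt pathway scaffold that also carries an RGS domain, at 32.0 and 31.3.

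Among the receptors whose signals RGS proteins shorten, 32 of 34 were tested, and 0 passed the adjusted threshold. At an unadjusted p under 0.05 there were 3 higher and 2 lower of the 32, beside 5.76% of all genes in either direction. Without vehicle replicate 4 there were 4 higher and 4 lower, beside 8.54% of all genes. The receptors were listed with earlier results of these data known, so these counts are a description. The median log2 fold change, 0.057, was -0.042 when vehicle replicate 4 was left out. Ccr7, the homing receptor of naive T cells, was by far the most abundant, at 744 ± 36.6 FPKM in vehicle libraries and 719 ± 74.5 in the others (SD, n = 4). Ccr8, the receptor of Ccl1, was at 77.0 FPKM in vehicle replicate 4 and at 106.1 to 128.0 in the other 7 libraries, and Gpr132 stood at 69.3 and 69.5 FPKM. Gpr65, a proton-sensing receptor, had a log2 fold change of -0.20 ± 0.0677 (SE), Cxcr5, the follicular homing receptor, 0.33 ± 0.128 and Gpr183, which senses oxysterols, 0.20 ± 0.0822 (0.13 without vehicle replicate 4), and edgeR's quasi-likelihood test gave each an adjusted p of 0.802. Over the 6 pathway lists together 3 genes were higher and 4 lower of 100 tested, beside 5.76% in either direction over all genes.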

How the data were processed

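Bulk mRNA of 8 libraries was analysed, 4 per group. Per the submitters' processing notes reads were aligned with HISAT2 2.0.5, and the counter, the annotation, the build and the use of strand are not given in the sources used here. In 1 table the authors deposited raw counts and FPKM for each gene and library, as the headers name them. It also holds the authors' group means, a normalised signal with no stated unit, and the authors' log2 fold changes and p-values, per the file headers, of which only log2 fold changes are quoted. Gene lengths in bases were deposited beside them.

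Counts were filtered with filterByExpr, scaled by TMM factors and fitted with edgeR 4.0.16 in R 4.3.3 (robust quasi-likelihood F test over all genes, Benjamini-Hochberg adjustment, threshold 0.05, two-sided). CPM used TMM-scaled library sizes and log2 CPM a prior count of 2. Standard errors came from the F statistic, and intervals cover 95%. DESeq2 1.42.0, other scalings and filters, a block on the title number, and each library left out in turn were alternatives. The lowest chi-square per gene between 2 libraries of a group was 2.11, where counting noise gives about 1, and all 8 libraries were kept as separate. Pairs with vehicle replicate 4 had 35.9 to 41.0, the other vehicle pairs 2.49 to 3.66 and the dimethyl succinate pairs 2.11 to 8.03.

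The 7 genes and the pathway lists were chosen with earlier results of these data known. Named genes were all 7, every tested RGS gene, and of each list the 3 highest by FPKM and up to 3 with the smallest unadjusted p under the threshold. Of the genes most like a member in pattern, 1 is not reported here. Gene models came from GENCODE M21 and promoter windows from RefSeq. Libraries with the same title number had an r of deviations from -0.014 to 0.13. The best match of a vehicle library bore the same number for numbers 3 and 4 and another number for 1 and 2. The main fit did not use the number for pairing, and a block on it was among the alternatives.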

Additional observations from a re-analysis of the deposited data

Results flagged for a closer look

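Of 22 groups of 4 examined (11 tested RGS genes in each of 2 conditions), 2 held a library far from the rest, where chance gives about 1 in 20. Both were vehicle replicate 4. Rgs2 stood there at 24.8 CPM, with a gap to the next library of 0.896 of the group's range. Rgs16 stood at 120.8 CPM, with a gap of 0.83 of it, only just past the cutoff. Rgs14 in the same library had a gap of 0.78 and was not flagged. That library also had 0.252% mitochondrially encoded counts, and whether this bears on the 2 values was not tested. Its chi-square per gene against the other vehicle libraries was 35.9 to 41.0, where those had 2.49 to 3.66 among themselves. The share of all genes that the same rule would flag was not computed. The 2 flags are therefore not shown to be particular to RGS genes, and the genes described were chosen on these same values.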

How the results depend on the processing

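The log2 fold changes of the 7 genes kept their sign under all 15 alternatives each, 105 values, and 0 moved by more than the spread between replicates. Rgs16 ranged from 0.18 to 0.40, Rgs2 from -0.35 to -0.12, Rgs1 from 0.019 to 0.13, Rgs14 from 0.042 to 0.18, Rgs19 from 0.0051 to 0.14, Rgs3 from 0.091 to 0.13 and Rgs10 from -0.21 to -0.16. The count of genes called by edgeR, 0 with all libraries (805 at an unadjusted p below 0.05), was 6 with no low-count filter (1595 unadjusted) and 1 with title numbers as a replicate block. It ran from 0 to 28 with 1 library left out, and was 28 without vehicle replicate 4. The unadjusted count ran from 585 to 1216 with 1 library left out, the highest without vehicle replicate 4. DESeq2 called 0 (867 unadjusted). Of the pathway genes, 7 were below the unadjusted threshold, and 3 to 13 with 1 library left out. There were 3 without vehicle replicate 2, 4 without dimethyl succinate replicate 2 and 13 without vehicle replicate 4. Over all genes the shares were 5.76% with all libraries and 8.54% without vehicle replicate 4. The replicate block changed no other count by over 1.5 times. By level per length, with principal transcripts Rgs1 ranked 1 in place of 3, Rgs16 3 in place of 1, Rgs3 6 in place of 7 and Rgs2 7 in place of 6. The cause of these differences was not tested. Rgs2 had the fewest counts of the members, 186 to 357 per library. Its coefficient of variation in vehicle libraries was 19.8%, or 2.82% without vehicle replicate 4.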
